A study of Mus musculus with 7 samples.

Results

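Tec, a TEC family tyrosine kinase, and 7 signalling genes that act below the T cell receptor (Plcg1, Vav1, Themis, Rasgrp1, Prkcq, Bcl10 and Malt1) were followed in naive CD4 T cells, which are helper T cells before their first encounter with antigen. Members were found by gene symbol in the deposited table, where each of the 8 held 1 row of 34745. All 8 passed the filter on low counts, and each had reads in every library. Tec is the sole TEC family kinase of the 8. Its relatives Txk and Btk are given as comparison genes.

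The cells came from the spleens of male C57BL/6 mice aged 8 weeks. The WT group held 3 wild-type mice and the GOF group held 4 mice heterozygous for a gain-of-function PIK3CD, with littermates as controls, and no mouse had a special treatment. PIK3CD encodes p110delta, the catalytic subunit of a leukocyte phosphoinositide 3-kinase. Which substitution the GOF mice carry, and what drives its expression, is not given in the sources used here. Cells were purified by removing other cell types with a kit and went to RNA without culture, so the levels are those of cells not stimulated in culture. Each library is taken as 1 mouse.

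When the T cell receptor is engaged, the kinases LCK and ZAP70 phosphorylate the scaffold LAT and its partner SLP-76. TEC kinases, most of which are recruited to the membrane through the lipid product of phosphoinositide 3-kinase, then phosphorylate phospholipase C gamma 1. That enzyme makes inositol trisphosphate, which releases calcium, and diacylglycerol, which recruits RASGRP1 to switch on Ras and ERK and recruits PKC theta, which acts through BCL10 and MALT1 on NF-kappa B. VAV1 and THEMIS work near the receptor, VAV1 as an exchange factor for small GTPases of the actin cytoskeleton and THEMIS as a T cell adaptor that binds GRB2 and the phosphatase SHP-1.

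Of the 8 genes, 3 were lower in GOF cells and none was higher: Tec was 3.60-fold lower, Rasgrp1 2.31-fold lower and Prkcq 1.32-fold lower. The other 5 did not pass the test, which was edgeR's quasi-likelihood test with Benjamini-Hochberg adjustment over all 12668 genes tested and a threshold of 0.05. The 3 calls are 37.5% of the 8 genes, where 31.3% of all tested genes passed in either direction and 14.5% passed as lower. The share called was thus near that of all genes. The median log2 fold change was -0.07 over the 8 genes and 0.01 over all tested genes. Across all genes 2130 were called higher and 1838 lower, and the split moved to 2527 higher and 1428 lower when libraries were scaled by total counts alone. In bulk RNA, fewer cells of a type and less RNA per cell cannot be told apart.

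**Figure D1:**
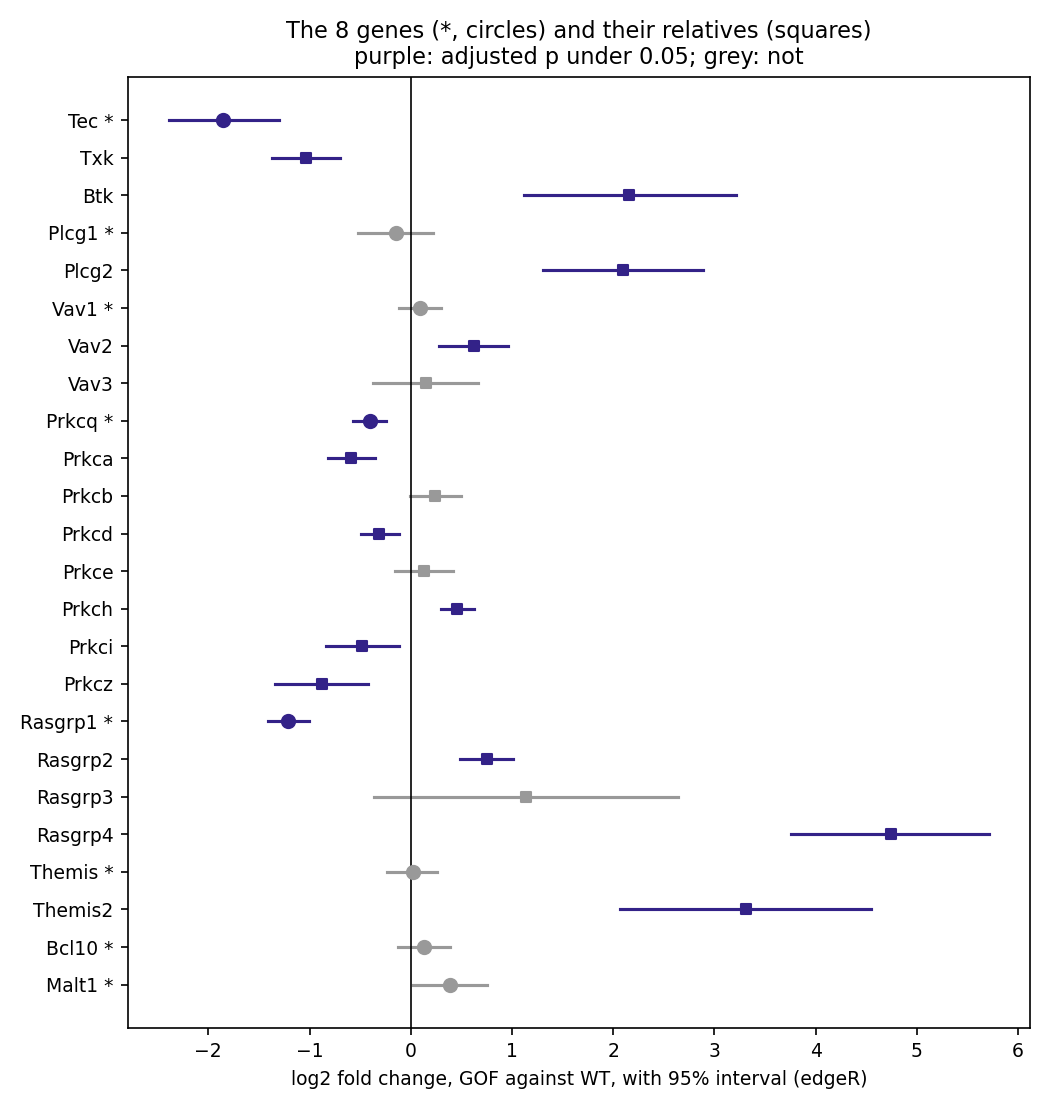
Log2 fold change, GOF against WT (4 and 3 mice), with the 95% interval from edgeR, for the 8 genes (circles, starred) and tested relatives (squares). Purple marks an adjusted p under 0.05 and grey the rest. Tec, Rasgrp1 and Prkcq lie below 0, at -1.85, -1.21 and -0.40, the intervals of Plcg1, Vav1, Bcl10 and Themis include 0, and that of Malt1 runs from 0.02 to 0.75.

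Library totals ran from 14497957 to 15015783 counts in WT and from 14945520 to 16293539 in GOF. The share of counts from mitochondrial genes was 4.33 to 5.12% in WT and 5.78 to 6.71% in GOF. Pik3cd itself fell in the GOF libraries (log2 fold change -0.80, SE 0.20, edgeR adjusted p = 0.0154), a call that was lost without GOF replicates 1 and 3 (log2 fold change from -1.06 to -0.54 over all alternatives). Its level does not check the genotype, since an altered protein need not alter its messenger RNA. Markers of naive CD4 T cells summed to 6891 to 7727 CPM (counts per 1000000, scaled by TMM) in WT and 7602 to 8741 in GOF. Of 10 tested, 4 were called higher: Cd5 (1.52 on the log2 scale), Cd3g (0.63), Cd4 (0.55) and Cd3e (0.38). The 2 called lower were Il7r (-1.01) and Lef1 (-0.34, edgeR adjusted p = 0.048), and only 1 was called lower in 16 of 19 alternatives. Markers of other cells were higher in GOF: 13 of 14 tested myeloid markers were called, and their sum was 52 to 93.7 CPM in WT against 524, 183, 561 and 203 CPM in GOF replicates 1 to 4. For B cells 8 of 12 markers were called (361 to 465 CPM in WT, 711 to 1152 in GOF), for neutrophils 8 of 9 (0.766 to 9.48 against 59.6 to 217), for NK and CD8 T cells 9 of 11 (62.6 to 83.7 against 136 to 190), and for red cells and platelets 6 of 10 (18.3 to 32.1 against 27.6 to 88.6). Ighm alone, with means of 334 CPM in WT and 784 in GOF, made most of the B cell sum. For red cells and platelets, GOF replicates 2 (27.6 CPM) and 4 (31.8 CPM) lay within the WT range. None of these markers of other cells was called lower, and Camp, Ly6g, Car1 and Gp9 were at 0 in all WT libraries. The 9 calls in the NK and CD8 list were genes of NK or other cytotoxic cells, while Cd8a (9.67 and 5.63 CPM in WT and GOF) and Cd8b1 (24 and 20.5) were not called. GOF replicates 1 and 3 held the most signal in each of these 5 lists. The part of these cells in the results below was not tested, and values without both libraries are given for some shares and calls only.

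**Figure D2:**
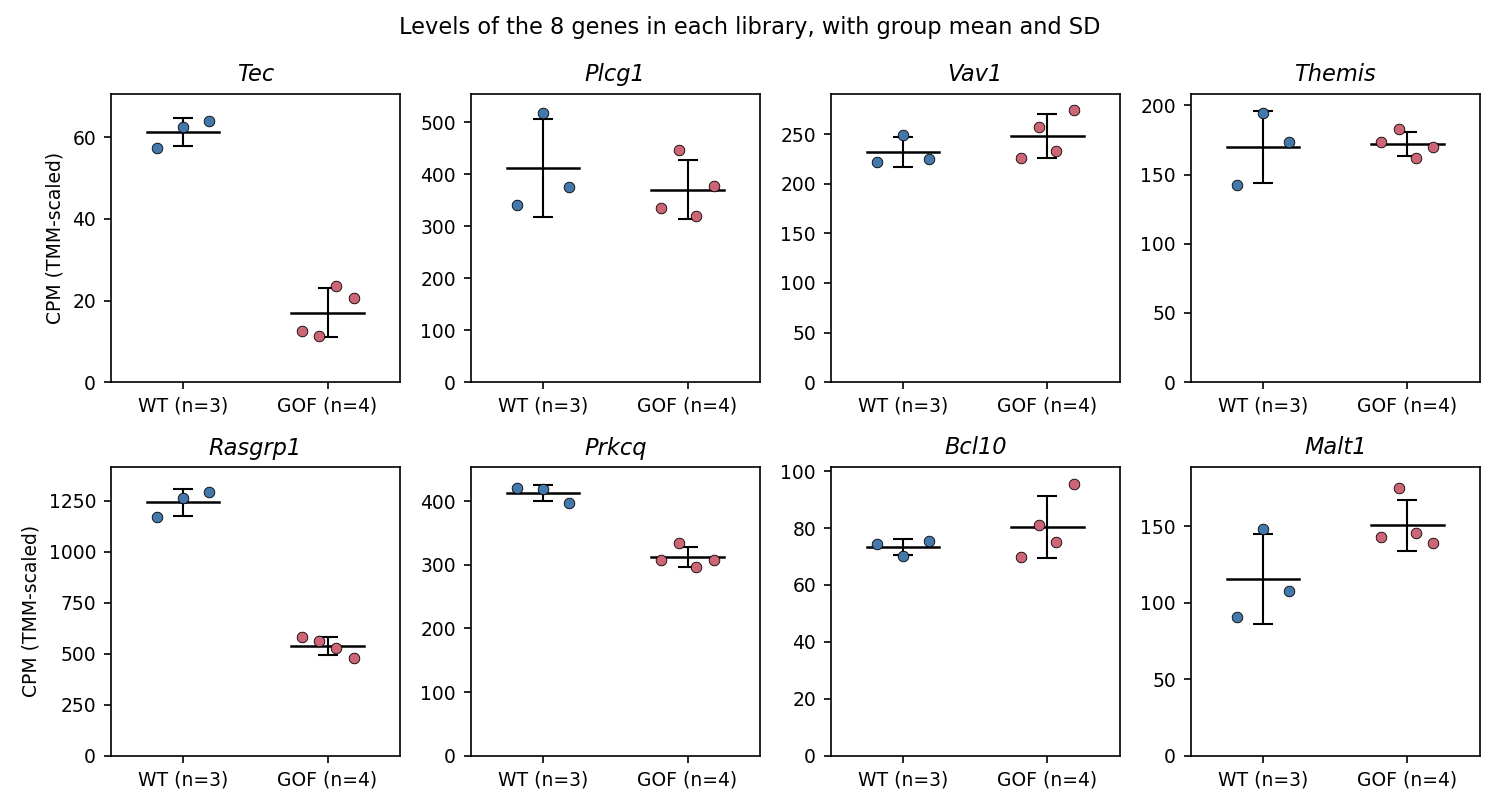
CPM of each of the 8 genes in each library, WT on the left and GOF on the right of each panel, with points for mice, a line for the group mean and bars for the SD. GOF points lie below all WT points for Tec, Rasgrp1 and Prkcq, and the groups overlap for the other 5 genes.

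Tec (ENSMUSG00000029217, mm10 chromosome 5, 72755716 to 72868483, minus strand) is the founding member of its kinase family. It stood at 57.5, 62.5 and 63.9 CPM in the WT libraries. In the GOF libraries it stood at 12.6, 11.2, 23.6 and 20.6 CPM. All 4 GOF values were below all 3 WT values, with replicates 1 and 2 the lowest. The mean fell from 61.3 ± 3.38 CPM (SD, n = 3) to 17.0 ± 6.02 (n = 4). That is a log2 fold change of -1.85 with SE 0.24 and a 95% interval from -2.39 to -1.30 (edgeR adjusted p = 0.000613). Of the 1838 genes called lower, 167 (9.09%) fell by as much or more. Summed counts behind Tec were 2625 in WT and 1083 in GOF, and its coefficient of variation was 5.52% in WT and 35.4% in GOF.

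Rasgrp1 (ENSMUSG00000027347, chromosome 2, 117279993 to 117343001, minus strand) encodes the diacylglycerol-dependent exchange factor that loads Ras with GTP in T cells. It was the most abundant of the 8 genes. The WT libraries held 1169, 1265 and 1292 CPM, and the GOF libraries 580.0, 561, 528 and 479 CPM. The 4 GOF values lay close together and far below the 3 WT values. From 1242 ± 64.4 CPM (SD, n = 3) the mean dropped to 537 ± 44.4 (n = 4), a log2 fold change of -1.21 with SE 0.09 and a 95% interval from -1.41 to -1.01 (edgeR adjusted p = 2.42e-05). Falls of this size or larger made up 377 of the 1838 (20.5%). Summed counts behind these values were 53188 in WT and 33910 in GOF.

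Prkcq (ENSMUSG00000026778, chromosome 2, 11172108 to 11301222, plus strand) encodes PKC theta, the protein kinase C isoform that gathers at the T cell synapse. Its WT libraries held 421, 419 and 398 CPM, and its GOF libraries 308, 334, 298 and 308 CPM. The groups did not overlap, though the difference was small beside those of Tec and Rasgrp1. The mean went from 413 ± 13.0 CPM (SD, n = 3) to 312 ± 15.7 (n = 4), a log2 fold change of -0.40 with SE 0.07 and a 95% interval from -0.57 to -0.24 (edgeR adjusted p = 0.00352). Most genes called lower fell by at least this much, 1523 of 1838 (82.9%). The adjusted p was 0.0498 without GOF replicates 1 and 3, the highest over the 19 alternatives, whose lowest was 2.18e-05. Every GOF library lay below every WT library for these 3 genes, and no gene of the 8 had the groups apart in the other direction. Over all tested genes the groups were apart for 39.8%, with GOF below WT for 18.2%.

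Promoter windows are printed for the 3 genes that fell, with Themis beside them as a T cell gene that did not pass the test. RefSeq windows on GRCm38.p6 were matched for 7 of the 8 genes, and each covers 250 bases before to 50 bases after the annotated start. Capitals mark GGGCGG or its reverse complement CCGCCC, the GC box that SP family factors bind.
Tec, chr5:72868399-72868698, minus strand: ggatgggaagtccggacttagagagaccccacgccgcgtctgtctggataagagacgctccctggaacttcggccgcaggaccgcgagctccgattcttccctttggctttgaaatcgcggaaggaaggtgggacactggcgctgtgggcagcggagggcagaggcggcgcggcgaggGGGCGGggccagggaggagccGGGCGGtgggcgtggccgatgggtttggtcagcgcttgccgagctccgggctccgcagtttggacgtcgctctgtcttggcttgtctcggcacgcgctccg
Rasgrp1, chr2:117342828-117343127, minus strand: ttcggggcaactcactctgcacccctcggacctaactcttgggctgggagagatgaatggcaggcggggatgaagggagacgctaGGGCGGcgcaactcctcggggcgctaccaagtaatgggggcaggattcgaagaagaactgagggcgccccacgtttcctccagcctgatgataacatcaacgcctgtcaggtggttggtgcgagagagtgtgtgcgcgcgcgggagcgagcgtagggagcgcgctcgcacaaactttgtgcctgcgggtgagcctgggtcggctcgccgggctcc
Prkcq, chr2:11172132-11172431, plus strand: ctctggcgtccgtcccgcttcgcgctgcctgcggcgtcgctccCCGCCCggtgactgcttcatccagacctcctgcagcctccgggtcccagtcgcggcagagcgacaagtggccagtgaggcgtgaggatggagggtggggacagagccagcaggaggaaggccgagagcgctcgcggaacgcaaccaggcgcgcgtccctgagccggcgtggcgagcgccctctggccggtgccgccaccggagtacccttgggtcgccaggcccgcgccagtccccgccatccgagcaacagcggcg
Themis, chr10:28668110-28668409, plus strand: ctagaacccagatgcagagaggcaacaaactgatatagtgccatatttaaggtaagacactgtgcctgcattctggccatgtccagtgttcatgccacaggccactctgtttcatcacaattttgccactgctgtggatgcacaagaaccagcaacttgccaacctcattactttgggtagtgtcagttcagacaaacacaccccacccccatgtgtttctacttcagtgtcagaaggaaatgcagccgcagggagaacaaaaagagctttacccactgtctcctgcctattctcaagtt

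The 3 promoters of the genes that fell were rich in G and C (67.7% for Tec, 63.7% for Rasgrp1 and 73% for Prkcq), and that of Themis was 47.3%. GC boxes began at positions -72 and -51 from the start in Tec, at -165 in Rasgrp1 and at -207 in Prkcq. Plcg1 held 2, Bcl10 3 and Vav1 1, and neither Themis window held any. The GC box thus occurred both in genes that fell and in genes that did not pass the test, and it is common, in 35.7% of 32851 promoters of the same length. GGAAA, the core of NFAT sites, lay at -92 in Rasgrp1, at -201 in Bcl10 and at -14 in the printed Themis window. It occurs in 61.3% of promoters. Searched on both strands, the FOXO motifs TGTTTAC and TGTTTGC (3.65% and 5.07% of promoters), the CRE TGACGTCA (1.79%), the E-box CACGTG (7.15%), the ETS motif CCGGAAG (8.86%) and the AP-1 motif TGACTCA (5.20%) were not found in the windows of Tec, Rasgrp1 or Prkcq. In genes that did not pass the test, TGTTTGC began at position 31 in the second Themis window, and CCGGAAG at 34 in Bcl10. A match in such a window is a description of letters.

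Plcg1 (ENSMUSG00000016933, chromosome 2, 160731300 to 160775760, plus strand), the enzyme that TEC kinases phosphorylate, stood at 340.9, 518 and 375 CPM in WT and 335, 446, 320 and 378 CPM in GOF. The groups overlapped, and replicate 2 was the highest library of each. Means were 411 ± 94.1 CPM (SD, n = 3) and 370 ± 56.7 (n = 4), with a log2 fold change of -0.15 and a 95% interval from -0.52 to 0.22 (edgeR adjusted p = 0.511). On the linear scale the interval of the GOF level runs from 0.696 to 1.16 times WT. The gene overlaps Zhx3 on the opposite strand, which held 1642 counts over the 7 libraries against 17652 and 23325 for Plcg1 in WT and GOF.

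Vav1 (ENSMUSG00000034116, chromosome 17, 57279100 to 57328031, plus strand) held 222, 250 and 225 CPM in WT and 226, 258, 233 and 274 CPM in GOF. The ranges overlapped and both groups were tight. Means of 232 ± 15.1 CPM (SD, n = 3) and 248 ± 22.3 (n = 4) gave a log2 fold change of 0.09 with a 95% interval from -0.12 to 0.30 (edgeR adjusted p = 0.487). A change beyond 1.23-fold up or to under 0.921 of WT lies outside this interval.

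Themis (ENSMUSG00000049109, chromosome 10, 28668360 to 28883818, plus strand) held 143, 194 and 173 CPM in WT and 173, 183, 162 and 170 CPM in GOF. All 4 GOF values fell within the WT range. Means were 170 ± 25.9 CPM (SD, n = 3) and 172 ± 8.52 (n = 4), a log2 fold change of 0.02 with a 95% interval from -0.23 to 0.26 (edgeR adjusted p = 0.927).

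Bcl10 (ENSMUSG00000028191, chromosome 3, 145922804 to 145934356, plus strand), the adaptor that links upstream signals to MALT1, held 74.2, 70.2 and 75.6 CPM in WT and 69.8, 80.9, 75.2 and 95.3 CPM in GOF. The groups overlapped, and GOF replicate 4 was the highest library. With means of 73.3 ± 2.80 CPM (SD, n = 3) and 80.3 ± 11.0 (n = 4) the log2 fold change was 0.13, with a 95% interval from -0.13 to 0.39 (edgeR adjusted p = 0.426).

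Malt1 (ENSMUSG00000032688, chromosome 18, 65430963 to 65478823, plus strand) encodes the paracaspase of the complex, both a scaffold and a protease. It held 90.4, 148 and 108 CPM in WT and 143, 175, 145 and 139 CPM in GOF. WT replicate 2 lay inside the GOF range, and the other 2 WT libraries lay below all 4 GOF libraries. From 115 ± 29.5 CPM (SD, n = 3) to 151 ± 16.6 (n = 4), the log2 fold change was 0.39 with SE 0.16 and a 95% interval from 0.02 to 0.75 (edgeR adjusted p = 0.105). The value moved with the libraries and the processing. Without WT replicate 2 the log2 fold change was 0.60 and the edgeR adjusted p 0.0104. Over 19 alternatives the log2 fold change ran from 0.23 to 0.60 and the adjusted p from 0.0104 to 0.285, and 4 passed. Upper-quartile scaling, quantile normalization and the replicate block, which keep WT replicate 2, were among those 4.

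Levels were compared between genes per length, in the authors' FPKM (fragments per kilobase of gene length, scaled to library size). In WT cells Rasgrp1 stood highest at 130 FPKM, followed by Prkcq at 43.8, Vav1 at 42.0, Plcg1 at 34.0, Malt1 at 22.0, Bcl10 at 14.3, Themis at 12.1 and Tec at 8.92. The ranges of neighbours over the WT libraries overlapped for Prkcq and Vav1, Vav1 and Plcg1, Plcg1 and Malt1, and Bcl10 and Themis. Within each WT library, though, Vav1 (39.8, 45.05 and 41.2 FPKM) stood above Plcg1 (27.9, 42.7 and 31.3). Plcg1 likewise stood above Malt1 (17.1, 28.2 and 20.8) in each. The order of Prkcq and Vav1, and that of Bcl10 and Themis, differed between WT libraries, so these were not told apart. In GOF cells Rasgrp1 stood at 59.5 FPKM, Vav1 at 47.3, Prkcq at 34.9, Plcg1 at 32.2, Malt1 at 30.4, Bcl10 at 16.5, Themis at 12.9 and Tec at 2.61, with overlap between Prkcq and Plcg1 and between Plcg1 and Malt1. Vav1 and Prkcq, which overlapped in WT, did not overlap in GOF. Rasgrp1 supplied 40.2 to 44.3% of the summed FPKM of the 8 genes in WT and 22.4 to 28% in GOF, while that sum was 283.4 to 329.3 FPKM in WT and 224.2 to 255.3 in GOF. The order depended on the gene length used. Rasgrp1 was highest in both groups and Tec lowest in GOF with the deposited length, with merged GENCODE M21 exons and with the longest transcript, but in WT Tec ranked 8, 5 and 7 and Malt1 5, 8 and 8 with these lengths. The places of Vav1, Prkcq and Plcg1 also moved with the length: with merged exons Vav1 (61.1) stood above Prkcq (56.5) in WT too.

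Relatives of the 8 genes were read next. In the TEC family, Txk is a kinase of T cells, and Btk and Bmx belong to other blood cells. Txk held 258, 321 and 275 CPM in WT and 102, 150, 154 and 151 CPM in GOF. All 4 GOF values lay below the WT values, a 2.05-fold lower mean (edgeR adjusted p = 0.00101). Btk went the other way, from 1.16 to 5.23 CPM (log2 fold change 2.16, edgeR adjusted p = 0.00738), a call lost without GOF replicates 1 and 3 (from 0.84 to 2.59 over all alternatives). Bmx, at 0 in all WT libraries, was not tested.

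Tec and Txk are adjacent on chromosome 5. Txk lies at 72695978 to 72752777 on the same strand, with its start 2938 bases from the end of Tec, and both genes fell. The neighbouring genes were looked at after the values of Tec were seen. Beyond Txk, Nipal1 fell too (log2 fold change -1.34, edgeR adjusted p = 0.000273), whereas Slain2 on the far side of Tec was not called (-0.12, adjusted p = 0.583). Gm42572, beyond Slain2, was not called either (-1.24, edgeR adjusted p = 0.116). Over all tested genes 14.5% were called lower. The 4 nearest tested genes around Rasgrp1 (Spred1, Fam98b, Thbs1 and Eif2ak4) were not called. Of those around Prkcq, Sfmbt2 was called higher (0.89, edgeR adjusted p = 0.0126), and Gm36932, Gm13293 and Pfkfb3 were not called.

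The Rasgrp family showed opposite directions. As a share of the family's summed FPKM in a library, Rasgrp1 held 90.9, 90.8 and 90.8% of the family's FPKM in WT and 75.3, 70.5, 72.6 and 66.5% in GOF, a mean difference of -19.6 percentage points. Rasgrp2, a calcium-dependent exchange factor for Rap1, rose from 249 ± 13.7 CPM (SD, n = 3) to 418 ± 57.0 (n = 4), or 0.75 on the log2 scale (edgeR adjusted p = 0.00142). Rasgrp4, known from mast cells and other myeloid cells, went from 0.259 to 7.08 CPM (edgeR adjusted p = 7.73e-05), on 6, 3 and 2 counts in the WT libraries. Rasgrp3 was not called (log2 fold change 1.14, adjusted p = 0.223).

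Among protein kinase C genes, Prkcq held 33.3, 31.7 and 32.0% of that family's FPKM in WT and 23.5, 25.0, 22.9 and 24.0% in GOF, with no overlap. Prkch, which encodes PKC eta, rose from 298 ± 11.4 to 410 ± 7.73 CPM (log2 fold change 0.46, edgeR adjusted p = 0.00135). Prkca fell from 133 ± 17.0 to 88.5 ± 5.51 CPM (log2 fold change -0.59, edgeR adjusted p = 0.00296). Prkcz (-0.88, adjusted p = 0.0104), Prkcd (-0.31, 0.0218) and Prkci (-0.48, 0.0471) were also called lower by edgeR, but those calls were lost in 1, 11 and 12 alternatives. Prkcb and Prkce were not called.

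For Plcg1, Vav1 and Themis the member gene itself did not pass the test, while a relative did. Plcg2, the isoform of B and myeloid cells, went from 3.22 to 13.8 CPM (4.30-fold, edgeR adjusted p = 0.00219), so that the share of Plcg1 was 97.9 ± 0.583% in WT (SD, n = 3) and 90.4 ± 3.80% in GOF (n = 4). Themis2, the relative found in B and myeloid cells, went from 1.18 to 11.8 CPM (log2 fold change 3.31, edgeR adjusted p = 0.00218). Its GOF libraries held 17.1, 6.96, 16.9 and 6.30 CPM, and the share of Themis was 69.2, 85.5, 68.4 and 85.9% there against 96.1 to 98.7% in WT. Btk, Plcg2, Rasgrp4 and Themis2 were each highest in GOF replicates 1 and 3. Those libraries also held the highest sums in every list of markers of other cells, whose part in these values was not tested. Without those libraries the difference in the share of Themis was -11.4 in place of -19.9 percentage points, and that of Plcg1 -4.26 in place of -7.49. Vav1 held 93.2 ± 0.643% in WT and 91.5 ± 1.18% in GOF, with overlap, and Vav2 rose from 14.6 to 22.4 CPM (log2 fold change 0.62, edgeR adjusted p = 0.0127), a call lost without GOF replicates 1 and 3, with a log2 fold change from 0.48 to 0.73 over all alternatives.

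For Plcg1, Prkcq, Rasgrp1 and Themis the share was lower in every GOF library. The exact 2-sided permutation test over libraries gave p = 0.0571 for each of these, the smallest that 3 against 4 libraries allow, and 0.0686 after adjustment over the 6 families. Vav1 gave an exact permutation p of 0.114 before and after adjustment. No share passed the threshold, nor could one have done.

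**Figure D3:**
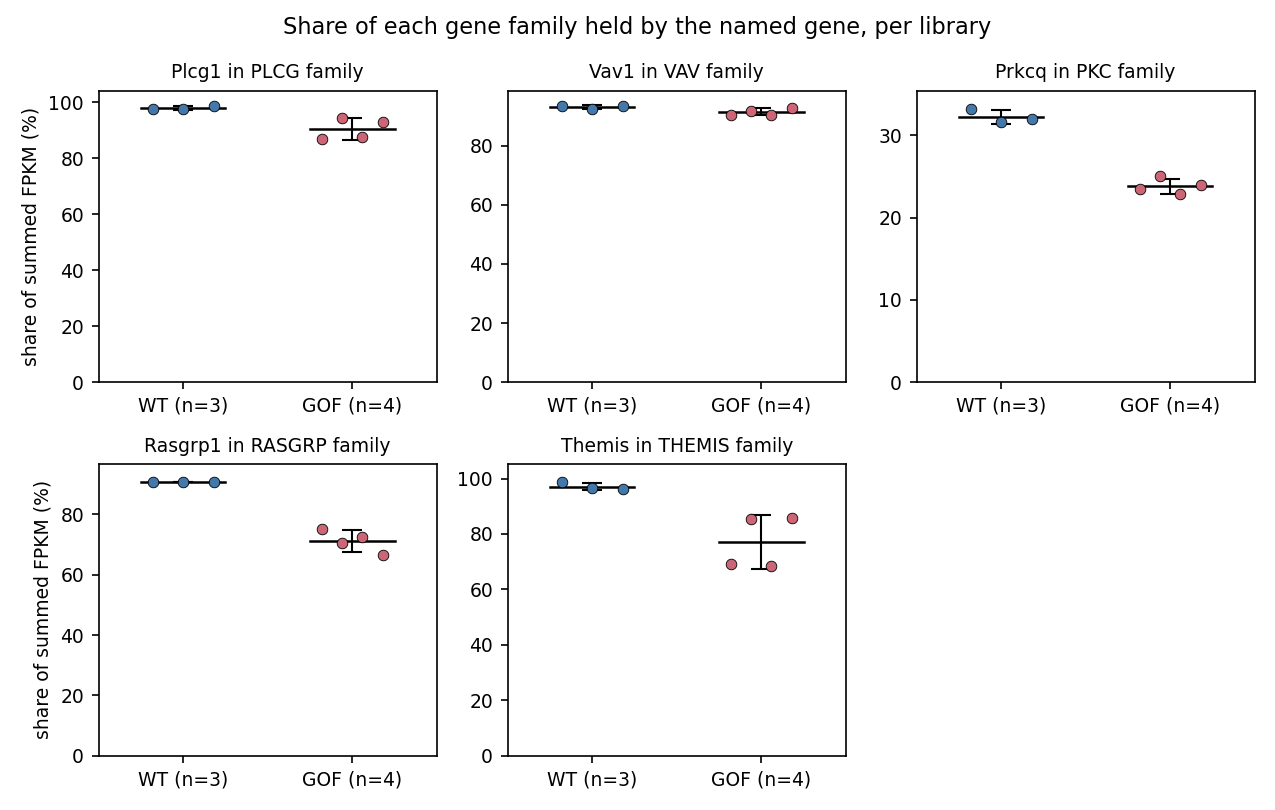
Share of each gene family's summed FPKM held by Plcg1, Vav1, Prkcq, Rasgrp1 and Themis, in percent, with 1 point per library, a line for the group mean and bars for the SD. Each panel has its own scale from 0. All GOF points lie below the WT points except for Vav1, and Rasgrp1 moves from near 90.8 to near 71.2%.

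Ratios of 2 genes within a library do not depend on the scaling between libraries. Rasgrp1 stood 3.90 times as high as Plcg1 in WT and 1.86 times in GOF by FPKM, a difference of -1.07 in the log2 ratio. The log2 ratio of Tec to Plcg1 differed by -1.77 and that of Prkcq to Vav1 by -0.495, and in these 3 pairs the GOF libraries lay below all WT libraries (exact 2-sided permutation p = 0.0571 each, 0.114 adjusted over 6 ratios). Malt1 to Bcl10 differed by 0.287 (exact p = 0.343) and Themis to Vav1 by -0.0643 (exact p = 0.457), with overlap in each.

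The wider pathway was read from 9 gene lists. Leaving out the 8 genes, 120 of 123 listed genes were tested, and 21 were called higher and 20 lower. That is 34.2% beside 31.3% of all genes, and the median log2 fold change was -0.03. By direction, 17.5% were called higher and 16.7% lower, beside 16.8% and 14.5% of all tested genes, so both shares were near those of all genes. The counts of each list below are to be read beside these shares of all genes. Leaving out GOF replicates 1 and 3 gave 13 higher and 11 lower, and leaving out GOF replicate 1 alone gave 13 lower. The adaptors and the calcium and Ras branches held members that moved in different directions.

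Around LAT and SLP-76, the scaffold on which Plcg1 and Vav1 assemble, 5 of 16 genes rose and 1 fell (median 0.21). Lat rose from 423 ± 24.6 to 599 ± 62.6 CPM (log2 fold change 0.50, edgeR adjusted p = 0.00493). Lcp2, which encodes SLP-76, rose from 324 ± 18.5 to 425 ± 13.9 CPM (0.39, edgeR adjusted p = 0.00444). Sh3bp2 rose by 1.53 (edgeR adjusted p = 4.08e-05) and Gab3 was 4.28-fold lower (6.17e-05). The other 2 that rose were Nck2 (0.50) and Sh2d2a (0.62), named after their values were seen, and the call for Nck2 was lost in 5 alternatives.

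In the list of phospholipase C gamma, calcium and NFAT, 2 of 24 genes rose and 5 fell (median -0.04). The calcium channel subunit Orai1 fell from 53.1 ± 6.79 to 25.0 ± 4.03 CPM (log2 fold change -1.09, edgeR adjusted p = 0.000778). Its relative Orai2 (-0.51), the calcineurin catalytic subunit Ppp3ca (-0.65) and the calcineurin regulator Rcan3 (-0.92) also fell. Besides Plcg2, Nfatc1 was called higher (0.38), and Nfatc3 was called lower (-0.29), both named after their values were seen. The calls of Nfatc1 and Nfatc3 were lost in 4 and 15 of 19 alternatives.

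In the list of Ras, diacylglycerol and ERK genes, 3 of 26 rose and 4 fell, Rasgrp1 among them (median -0.08). Rasa1, a GTPase activating protein that switches Ras off, fell by 0.98 on the log2 scale (edgeR adjusted p = 0.00132). Map2k1, which encodes the ERK kinase MEK1, was called lower (-0.39), Spred2, an inhibitor of the pathway, was called higher (0.48), and both calls were lost without GOF replicates 1 and 3, that of Spred2 also without GOF replicates 2 and 4. Over all alternatives the log2 fold change ran from -0.42 to -0.29 for Map2k1 and from 0.39 to 0.56 for Spred2. Rasa3, named after its values were seen, was called lower (-1.06), though its groups overlapped and the call was lost in 6 alternatives. Rasgrp2 and Rasgrp4 were the other 2 called higher.

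Around Bcl10 and Malt1, 2 of 20 tested genes of the BCL10, MALT1 and IKK list fell and the other 18 did not pass the test (median -0.10). Traf6, a ubiquitin ligase that MALT1 binds, fell from 155 ± 9.71 to 97.1 ± 9.09 CPM (-0.68, edgeR adjusted p = 0.000958), and Casp8 fell by 0.49 on the log2 scale (0.00321). Of 11 genes whose proteins MALT1 cleaves or is listed as cleaving, 1 rose and 2 fell. Tnfaip3, which encodes the NF-kappa B inhibitor A20, rose from 110 ± 57.1 to 612 ± 227 CPM (2.48, edgeR adjusted p = 0.00407). N4bp1 (-0.33) and Zc3h12d (-0.30) were called lower, and these calls were lost in 3 and 7 alternatives.

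In the list of VAV, small GTPases and actin, 6 of 18 genes rose and 2 fell (median 0.12), while Vav1 was not called. Rac2, the Rac GTPase of blood cells and a target of VAV1, rose from 996 ± 37.5 to 1732 ± 136 CPM (log2 fold change 0.80, edgeR adjusted p = 0.000259). Was, which encodes the actin regulator WASP, rose by 0.68 (edgeR adjusted p = 0.00061), and Rhoh was called higher by 0.49 on the log2 scale. Vav2 was the fourth, and Cdc42 (0.29) and Wipf1 (0.34), named after their values were seen, were the others, with calls lost in 5 and 7 alternatives. Wasf2 (-0.47) and Dock2 (-0.24, named after its values were seen) were called lower, and the calls for Rhoh, Wasf2 and Dock2 were lost in 1, 2 and 15 alternatives. Among the partners of Themis, Ptpn6 (SHP-1) rose 2.04-fold, from 152 ± 14.1 to 310 ± 28.5 CPM (edgeR adjusted p = 0.000135), and Grb2 was not called (-0.03). Blood cells other than T cells also express Rac2, Was and Ptpn6, and the part of such cells in these values was not tested.

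**Figure D4:**
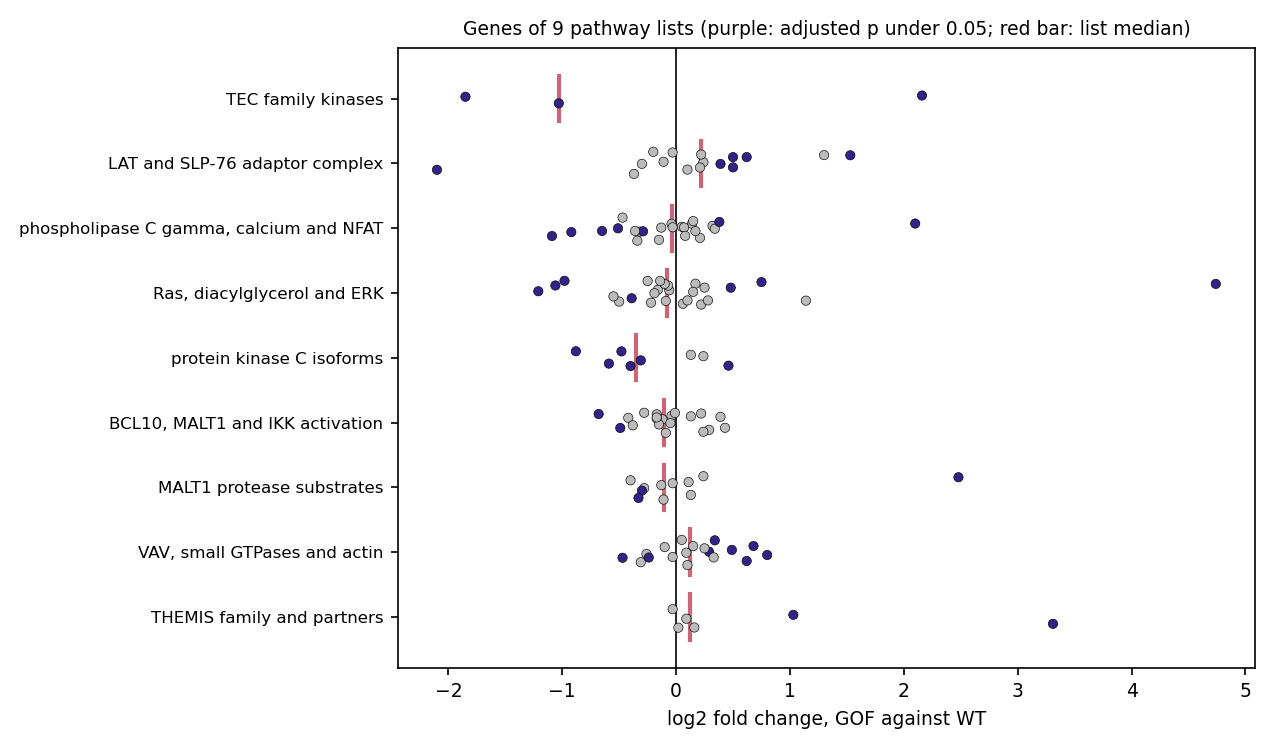
Log2 fold change (GOF against WT) of every tested gene in the 9 pathway lists, 1 point per gene (purple where the adjusted p is under 0.05, grey otherwise), with a red bar for each list's median. The median of the 3 TEC kinases shown is the lowest, that of the protein kinase C list is -0.36 and that of the LAT and SLP-76 list 0.21, and each list has points on both sides of 0.

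For each of the 3 genes that fell, the 2 tested protein-coding genes with the most similar centred pattern over the 7 libraries were found among 10999, by the root mean square difference of log2(CPM + 0.5). For Tec these were Lrfn1 (0.219) and Ascl4 (0.254), for Rasgrp1 Fam118a (0.074) and Atp1b1 (0.076), and for Prkcq Prkar1a (0.023) and Ppfia1 (0.031). The closest patterns of Prkcq were nearer to it than those of Tec to Tec, whose GOF libraries varied most. This likeness is a description, since all 7 libraries and the group difference are shared.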

How the data were processed

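RNA was measured by paired-end TruSeq sequencing, per the labels' protocols, in naive CD4 T cells of 3 WT and 4 GOF mice. The deposited table holds raw counts per gene and the authors' FPKM. FPKM equals the count per kilobase of deposited length and 1000000 column counts (within 0.1% for 100.0% of values), and 68.3% of the 12629 tested genes in GENCODE M21 have as length the sum of all distinct annotated exons, overlapping ones counted repeatedly. HISAT2 2.0.4, Cufflinks 2.1.1, Cuffdiff and mm10 are named in the submitters' processing notes. The sources used here do not give their roles, how reads were counted or whether strand was used, so reads shared by overlapping genes cannot be told apart.

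Counts were tested with edgeR 4.0.16 in R 4.3.3 (filterByExpr, TMM scaling, quasi-likelihood test, Benjamini-Hochberg adjustment over 12668 genes, threshold 0.05). CPM are TMM-scaled. Shares and ratios of FPKM were tested with exact permutation tests over libraries (SciPy 1.17.1). Alternatives used limma 3.58.1 and DESeq2 1.42.0. On simulated counts over 12438 genes, the test recovered 94% of 100 genes with a log2 change of 1 and 33% of 100 with a change of 0.5. Libraries of 1 group differed beyond sampling noise (chi-square per degree of freedom 11.74 to 40.84), so none was another's library deposited again. Named genes were the 8 genes, Pik3cd, their relatives, up to 4 further genes per list past the threshold with the smallest p, and 2 genes of most similar pattern per gene that fell. The 8 genes and the lists were chosen with earlier results of these data known. In the marker list of myeloid cells, Itgam had 2 rows and was left out. Some listed genes, 1 family share and 1 ratio are not reported here, and adjusted p-values keep them in their families of 6 tests.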

Additional observations from a re-analysis of the deposited data

Results flagged for a closer look

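Of 70 quantities (gene levels, shares and ratios) examined in the GOF group, 4 had 1 library far from the other 3. By chance about 5% of groups of this size would. Txk, the kinase next to Tec, was lowest in GOF replicate 1 at 102.2 CPM, with the others between 149.6 and 153.7. Ppp3ca, a calcineurin subunit, was highest in GOF replicate 1 at 62.87 CPM, against 54.09 to 55.57. Cdc42, a small GTPase of the actin cytoskeleton, was lowest in GOF replicate 2 at 654.3 CPM, against 674.9 to 678.7. Ppfia1, one of the genes with a pattern like that of Prkcq, was highest in GOF replicate 2 at 101.3 CPM, against 91.32 to 92.42. For all 4 genes the lone library lay on the same side of all WT libraries as the other 3.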

How the results depend on the processing

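Over 19 alternatives the calls of Tec (log2 fold change -2.04 to -1.49), Rasgrp1 (-1.27 to -1.10) and Prkcq (-0.44 to -0.29) held, and Plcg1, Vav1, Bcl10 and Themis were never called. Malt1 made 1 of the 8 genes called higher under upper-quartile scaling (0.46), quantile normalization with limma (0.54), the replicate block (0.45) and without WT replicate 2, so the count ran from 0 to 1 when single libraries were left out. The cause was not tested. Genes called over the whole table numbered 1093 higher and 1069 lower at a mean FPKM of at least 5, where fewer genes were tested, and 1074 and 1050 without GOF replicates 1 and 3, where fewer libraries were used. Pathway genes then numbered 13 and 11, and the count of lower ones ran from 13 to 24 when single libraries were left out (20 with all). With the replicate number as a block, 1677 were higher and 1519 lower. Same-numbered libraries did not deviate together (correlations 0.04, 0.15 and -0.04), so the numbers were not taken as pairs. Scaling moved the split of calls: higher calls were 53.7% of all calls with TMM, 63.3% with upper-quartile, 63.9% with total counts, and 65.1% and 65.9% with limma on log2(FPKM + 1) and log2(FPKM + 0.1).

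Differences in family share (percentage points) moved for Plcg1 to -4.26 without GOF replicates 1 and 3, -10.7 without GOF replicates 2 and 4, -2.99 with counts and -3.52 with the longest transcript as length. For Themis they were -11.4, -28.3, -5.77 and -9.04 under the same settings, and for Rasgrp1 -27.5 with counts. The lengths were chosen as alternatives after seeing the data. List counts are small and moved too. Genes called higher ran from 0 to 1 in the TEC list (1 in the test used), 1 to 4 in the calcium list (2), 2 to 5 in the Ras list (3), 1 to 2 in the protein kinase C list (1), 0 to 3 in the BCL10 and MALT1 list (0), 1 to 2 among MALT1 substrates (1), 2 to 7 in the VAV list (6) and 1 to 3 in the THEMIS list (2). Genes called lower ran from 0 to 2 in the LAT list (1), 2 to 5 in the Ras list (4), 2 to 5 in the protein kinase C list (5), 0 to 3 among MALT1 substrates (2) and 0 to 2 in the VAV list (2). Markers called higher ran from 2 to 11 for B cells (8), 6 to 13 for myeloid cells (13), 3 to 10 for neutrophils (8), 4 to 9 for NK and CD8 T cells (9) and 2 to 8 for red cells and platelets (6), and naive CD4 markers called lower from 1 to 2 (2). In simulation 94% of changes of 1 and 33% of changes of 0.5 on the log2 scale were recovered, with few genes changed. The recovery in the data was not measured, and a gene not called may still differ.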
